A study of Mus musculus with 2 samples.

Results

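Cell division genes were examined as a set of 43 genes, all present among the 25595 genes counted in a pair of single-cell RNA libraries from mouse cerebral cortex. The rule for the set uses gene names and no measured value, but the list was drawn up with earlier results of these data known. It holds 27 mitotic members, 10 S-phase members (Pcna, Rrm1, Rrm2, Tyms and the 6 genes Mcm2 to Mcm7), Pclaf, a partner of PCNA, and 5 genes of the G1 phase (Ccne1, Ccne2, E2f1, Ccnd1, Ccnd2). Every one of the 43 had UMIs (unique molecules counted) in both libraries, 54295 UMIs in all in the N-PRα-KO library and 205472 in the WT library.

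One library came from N-PRα-KO mice, which carry Nestin-Cre and floxed Pdgfra (Nestin-Cre;Pdgfraflox/flox), and the other from WT mice of strain C57BL/6J, so the control is not a floxed or Cre-only animal by its label. Nestin-Cre is best known for acting in neural progenitors and their descendants. Cortex and meninges were dissociated together, and cells carrying CD140a, the protein made from Pdgfra, were enriched with magnets in both genotypes. The study set out to describe the activated fibroblasts of the hypomyelinated cortex in these knockouts. The labels name no age, sex or number of animals. With 1 library per genotype there is no replicate check, so no test was made and intervals cover counting error only; genotype, age, preparation and pipeline run cannot be told apart.

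The cell cycle runs from G1, in which D-type and E-type cyclins and E2F factors commit a cell to divide, through S phase, in which DNA is copied, to G2 and mitosis. S-phase genes encode the replicative helicase (Mcm2 to Mcm7), the sliding clamp of the DNA polymerase (Pcna) and enzymes that make DNA building blocks (Rrm1, Rrm2, Tyms). Mitotic genes encode the kinase that drives entry into mitosis and its cyclins (Cdk1, Ccnb1, Ccnb2, Ccna2), chromosome condensation and decatenation proteins (Smc2, Smc4, Top2a), the spindle and its checkpoint (Bub1, Bub1b, Knl1, Cenpe, Cenpf, Kif11, Tpx2), cytokinesis proteins (Prc1, Kif20b, Kif23, Aurkb, Birc5) and the machinery that ends mitosis (Cdc20, Ube2c). In the postnatal brain, oligodendrocyte precursors and neuronal progenitors are the classic dividing cells, while ependymal cells and mature oligodendrocytes are regarded as no longer dividing.

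Mitotic genes are known to be switched on together through promoter elements, the CHR (cell cycle genes homology region) with nearby CCAAT boxes, and S-phase genes through E2F sites. The windows below are given to show these elements. Whether the elements bear on the differences between the libraries was not tested. Of the 43 members, 35 matched the RefSeq promoter table (GRCm38.p6), with 37 promoters. Within 300 bases at each start, on both strands, TTTGAA or TTCGAA (the CHR letters) occurred in 19 of 24 mitotic promoters (79.2%) and 2 of 10 S-phase promoters, against 19.2% of all 32851 promoters. CCAAT occurred in 83.3% of mitotic and 90% of S-phase promoters, against 37.4% of all. TTTNNCGC, an E2F-type element, occurred in 1 of 24 mitotic and 5 of 10 S-phase promoters, against 5.17% of all. CHR letters and CCAAT together stood in 70.8% of the mitotic promoters and 7.52% of all promoters. A match is a description of the letters and not a site shown to be used. The windows shown run from 200 bases before the start to 20 after it, with the motif letters on either strand in capitals.
Ccnb2, chr9:70421535-70421754 (-): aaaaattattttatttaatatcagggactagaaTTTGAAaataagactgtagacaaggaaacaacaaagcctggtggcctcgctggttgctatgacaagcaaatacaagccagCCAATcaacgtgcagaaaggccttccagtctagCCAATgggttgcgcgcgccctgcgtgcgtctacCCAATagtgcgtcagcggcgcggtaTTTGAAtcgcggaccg
Cdk1, chr10:69352893-69353112 (-): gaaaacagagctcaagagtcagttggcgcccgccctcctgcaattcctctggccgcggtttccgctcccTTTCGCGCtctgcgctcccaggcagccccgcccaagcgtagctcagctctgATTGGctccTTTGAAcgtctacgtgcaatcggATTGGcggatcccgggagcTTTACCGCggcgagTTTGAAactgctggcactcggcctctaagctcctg
Top2a, chr11:99024170-99024389 (-): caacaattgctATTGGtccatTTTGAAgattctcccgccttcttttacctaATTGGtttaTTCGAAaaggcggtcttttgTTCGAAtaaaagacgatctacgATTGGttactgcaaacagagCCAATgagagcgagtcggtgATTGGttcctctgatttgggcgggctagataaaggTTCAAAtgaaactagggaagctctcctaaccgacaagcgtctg
Cdc20, chr4:118437324-118437543 (-): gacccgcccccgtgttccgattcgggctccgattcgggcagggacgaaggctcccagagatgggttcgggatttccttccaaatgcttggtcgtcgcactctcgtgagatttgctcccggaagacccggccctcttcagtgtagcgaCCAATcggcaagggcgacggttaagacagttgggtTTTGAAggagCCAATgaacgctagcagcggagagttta
Mcm6, chr1:128359686-128359905 (-): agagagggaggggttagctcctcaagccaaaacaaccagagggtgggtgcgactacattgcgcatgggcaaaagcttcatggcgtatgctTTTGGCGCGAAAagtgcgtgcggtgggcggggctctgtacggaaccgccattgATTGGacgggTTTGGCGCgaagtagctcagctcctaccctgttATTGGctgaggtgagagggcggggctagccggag
Pcna, chr2:132253161-132253380 (-): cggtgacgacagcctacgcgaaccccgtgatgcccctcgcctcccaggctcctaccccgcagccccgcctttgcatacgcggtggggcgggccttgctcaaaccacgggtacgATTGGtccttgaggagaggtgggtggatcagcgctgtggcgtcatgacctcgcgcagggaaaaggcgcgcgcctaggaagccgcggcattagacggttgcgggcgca
Ccnb2, Cdk1, Top2a and Cdc20 are mitotic, and each held CHR letters beside CCAAT boxes. Mcm6 held E2F-type letters and CCAAT but no CHR letters. Pcna held 1 CCAAT box and neither of the other elements in this window, and Cdk1 held all 3 kinds. Birc5 and Nusap1, mitotic members not shown, held none of the 3 kinds within their 300 bases.

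After a filter on cells (300 or more genes, no more than 25% of UMIs mitochondrial) and removal of called doublets, 4186 N-PRα-KO cells and 9895 WT cells were used, with a median of 5781 and 3264 UMIs per cell. The mitochondrial limit removed 4126 of the 8336 barcodes from N-PRα-KO and 1329 of the 11438 from WT. The libraries shared 105 cell indices. Cells were clustered without a set list of cell cycle genes, which did not cover every gene of division. Clusters were named from marker lists, and 9 classes reached 50 cells in each library. Most clusters held mainly cells of 1 library. Oligodendrocyte precursor-like cells came mainly from cluster 29 for N-PRα-KO (46 of 57 cells), against clusters 0, 1, 2 and 5 for WT. Fibroblast-like cells came mainly from clusters 7 and 16 against 9 and 16, and microglia-like cells from 8 against 6. Ependymal-like cells came mainly from 10 against 17, and endothelial-like cells from 12 and 26 against 18 and 26. Astrocyte-like cells came mainly from 13 and 20 against 3, 4 and 19, and neuronal lineage-like cells from 21 and 22 against 11, 15 and 22. A cluster of 1 library can reflect that library as well as a cell type. Pdgfra itself was at 3279 CPM (UMI counts scaled to the class total) in N-PRα-KO and 5001 CPM in WT precursor-like cells, and at 700.2 and 874.7 CPM in fibroblast-like cells. Outside these classes Pdgfra had a UMI in 17.5% to 26.8% of WT cells of the 7 other compared classes and in 3.67% to 10.1% of the N-PRα-KO cells. Counted transcript ends need not lie in the deleted part of the gene, so these levels do not check the deletion.

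Dividing cells were less frequent in the N-PRα-KO library in each of the 9 classes. A cell was called dividing when at least 3 of the 27 mitotic members, or at least 3 of the 10 S-phase members, had a UMI after each cell was thinned to 2000 UMIs. Over all cells, 330 of 3994 N-PRα-KO cells (8.26%, exact 95% interval 7.43 to 9.16) against 1995 of 8041 WT cells (24.8%, 23.9 to 25.8) met the rule. Cells under 2000 UMIs, 192 in N-PRα-KO and 1854 in WT, were left out, unequally over the classes. Without thinning, 25.99% and 31.7% of the cells met it. In 357 N-PRα-KO and 1047 WT cells the better group stood at 2 members and in 81 and 358 at 3, so the class is a range cut from a count and not a cell type.

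Among oligodendrocyte precursor-like cells, the glial progenitors that carry the most Pdgfra, 6 of 54 N-PRα-KO cells (11.1%, 4.19 to 22.6) against 1134 of 4198 WT cells (27.0%, 25.7 to 28.4) were dividing. These 1134 cells made up 56.8% of the dividing cells of the WT library. Of the 640 thinned cells of WT cluster 5, 637 were dividing, and the other WT precursor clusters 0, 1 and 2 held 205 of 1482, 129 of 1269 and 163 of 807. Aspm, a mitotic spindle gene not on the excluded list, was among the leading genes of cluster 5. The share in this cluster is therefore not independent of the clustering. The N-PRα-KO share rests on 54 cells, and its interval is wide. Of the 6 dividing N-PRα-KO cells, 4 were the 4 N-PRα-KO cells that fell in cluster 5. Cluster 29, with most N-PRα-KO precursor-like cells, held 2 of 46 (4.35%).

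In the neuronal lineage-like class 86 of 245 N-PRα-KO cells (35.1%, 29.1 to 41.4) against 376 of 644 WT cells (58.4%, 54.5 to 62.2) were dividing, the highest shares of the 9 classes in each library. The class joins clusters of different kinds. Clusters 11 and 21, led by Dlx1 and other genes of young interneurons, held 100 dividing cells of 204 in WT (cluster 11, 49.0%) and 83 of 200 in N-PRα-KO (cluster 21, 41.5%). WT cluster 15, with Dlx1, Insm1 and Eomes among its leading genes, held 257 of 326 (78.8%) and had 2 N-PRα-KO cells. Cluster 22, led by Reln, Eomes and other genes of glutamatergic neurons, held 2 of 43 N-PRα-KO and 19 of 114 WT cells. The cluster makeup of the class differed between the libraries, and its part in the difference was not tested. This class supplied 26.1% of the dividing cells of the N-PRα-KO library, more than any other.

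Fibroblast-like cells, the collagen-producing cells of the meninges and vessels, were dividing in 54 of 953 N-PRα-KO cases (5.67%, 4.29 to 7.33) against 59 of 470 WT cases (12.6%, 9.70 to 15.9). The N-PRα-KO dividing cells sat in cluster 7, led by Col15a1 and Lum, with 51 of 616 cells. Cluster 16, with Slc6a20a and Aldh1a2 among its leading genes, held 3 of 336. The WT dividing cells sat in cluster 9, led by Slc6a20a, Gjb2 and Aldh1a2, with 56 of 457 cells, and cluster 16 held 3 of 13. Cluster 7 had 0 WT cells. So the 2 shares come mostly from different fibroblast-like clusters, and the part of this makeup in the difference was not tested.

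Immune and vascular cells followed the same order. Microglia-like cells were dividing in 57 of 574 N-PRα-KO cells (9.93%, 7.61 to 12.7) against 158 of 484 WT cells (32.6%, 28.5 to 37.0). Border macrophage-like cells were dividing in 18 of 106 (17.0%) and 16 of 41 (39.0%). Endothelial-like cells, with 63 of 534 (11.8%, 9.19 to 14.8) against 117 of 282 (41.5%, 35.7 to 47.5), showed the widest gap of the 9 classes under this rule, -29.7 percentage points (95% interval -36.2 to -23.1); with Mki67 required it was -13.2 and not the widest. Mural-like cells (pericytes and smooth muscle) gave 16 of 362 (4.42%) and 9 of 40 (22.5%). Endothelial-like, microglia-like and fibroblast-like cells supplied 19.1%, 17.3% and 16.4% of the dividing cells of the N-PRα-KO library.

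Astrocyte-like cells gave 10 of 574 (1.74%) and 70 of 1365 (5.13%), and ependymal-like cells 17 of 448 (3.79%) and 39 of 268 (14.6%, 10.56 to 19.4). Ependymal cells are not thought to divide, so a share at or below theirs in the same library is read as background. By that measure the astrocyte-like shares of both libraries, and the WT fibroblast-like share, cannot be set apart from background by this rule alone. Other classes had higher shares but intervals that overlapped the ependymal-like one (2.23 to 6.01 in N-PRα-KO). These were N-PRα-KO mural-like (2.55 to 7.08), fibroblast-like (4.29 to 7.33) and precursor-like cells (4.19 to 22.6), and WT mural-like cells (10.8 to 38.5). WT oligodendrocyte-like cells, the other class taken as not dividing, gave a lower share, 4 of 129 (3.10%, 0.851 to 7.75) at a median of 8219 UMIs per cell, against 4732 in WT ependymal-like cells. The WT fibroblast-like cells differed from the ependymal-like ones in the number of members per cell, with 5 or more of 1 group in 45 of 470 cells against 11 of 268. Ependymal-like dividing cells carried few S-phase members: none had 3 of both groups, and 15 of 17 and 35 of 39 had mitotic members alone.

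A stricter rule, chosen after these values were seen, asked for at least 3 mitotic members with Mki67 among them. Mki67 encodes Ki-67, the standard marker of cycling cells. It left 0 of 448 N-PRα-KO ependymal-like cells (3 cells would be 0.670%, and the exact upper bound is 0.820%) and 4 of 268 WT ones (1.49%). The N-PRα-KO and WT shares were then 4.46% and 15.96% over all cells, 9.26% and 18.8% in precursor-like, 22.9% and 37.9% in neuronal lineage-like, 3.57% and 8.51% in fibroblast-like, 5.401% and 21.5% in microglia-like, 10.4% and 26.8% in border macrophage-like, 5.24% and 18.4% in endothelial-like, 2.49% and 15% in mural-like and 0.523% and 1.61% in astrocyte-like cells. The exact interval of the WT ependymal-like share reached 3.78%, and 7 classes stood above the ependymal-like bound of their library; the astrocyte-like shares lay below them. The share of each of the 9 classes was lower in the N-PRα-KO library under both rules. With Mki67 required, exact intervals of N-PRα-KO and WT overlapped in precursor-like cells (3.08 to 20.3 and 17.6 to 20.01). The N-PRα-KO share there rested on 5 cells. The intervals also overlapped in border macrophage-like cells (5.295 to 17.8 and 14.2 to 42.9). The same held in astrocyte-like (0.108 to 1.52 and 1.01 to 2.43) and ependymal-like cells (0 to 0.820 and 0.408 to 3.78). Of the smaller classes, choroid plexus-like cells gave 0 of 38 and 7 of 16 under the first rule. With Mki67 required they gave 0 of 38 and 6 of 16 (37.5%, 15.2 to 64.6), so the WT share stayed high there. Called doublets, removed beforehand, held 0 dividing cells of 10 for N-PRα-KO and 40 of 145 (27.6%) for WT.

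**Figure D1:**
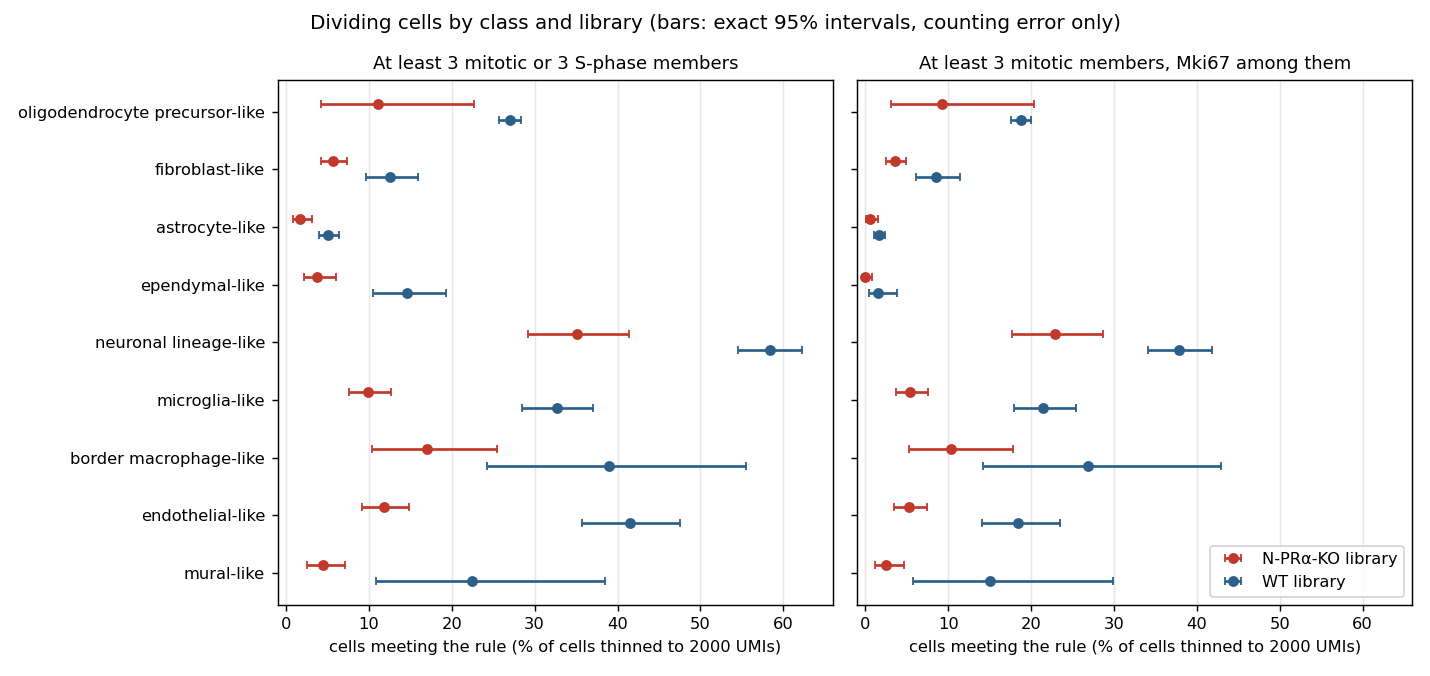
Share of dividing cells (x axis, % of cells thinned to 2000 UMIs) in 9 classes (y axis), N-PRα-KO in red and WT in blue, with exact 95% intervals for counting error. The left panel uses any 3 mitotic or 3 S-phase members and the right panel requires Mki67. The N-PRα-KO point lies left of the WT point in each class, and the ependymal-like class drops to 0% and 1.49% on the right.

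RNA of 11 precursor markers was also counted in the other classes, most in the WT library. Whether it came from precursors or was made by the class itself was not tested. In the 8 other compared classes these markers stood at a median of 3.57% to 6.19% of their precursor-like level in the WT library and at 0.637% to 2.30% in the N-PRα-KO library. At those percentages the WT precursor level of Mki67 would give 15.7 to 27.3 CPM. Mki67 was measured at 16.6 CPM in WT ependymal-like and 26.5 CPM in astrocyte-like cells, both close to that level, and at 154 CPM in fibroblast-like, 166 CPM in endothelial-like, 210 CPM in mural-like, 499 CPM in border macrophage-like, 672 CPM in microglia-like and 751 CPM in neuronal lineage-like cells. All 27 mitotic members were above 2 times that level in the WT fibroblast-like, neuronal lineage-like, microglia-like, border macrophage-like and endothelial-like classes, 19 in mural-like, 17 in astrocyte-like and 12 in ependymal-like cells. The part of this RNA in the cell shares was not tested.

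S-phase and mitotic members were not lower to the same extent. In dividing cells, the summed S-phase UMIs per mitotic UMI were 0.303 in the N-PRα-KO library and 0.179 in the WT library. A dividing cell held on average 13.02 mitotic UMIs for N-PRα-KO and 22.3 for WT, but 3.945 and 3.9995 S-phase UMIs (per 2000 UMIs). Over all thinned cells, dividing or not, the ratio was 0.467 (0.446 to 0.489) and 0.227 (0.223 to 0.232). Of the S-phase UMIs, 48.4% in N-PRα-KO and 72.4% in WT lay in dividing cells, against 74.6% and 91.7% of the mitotic UMIs. S-phase members were thus counted more often outside the cells called dividing. The part of this in the ratio over all cells was not tested. Of the N-PRα-KO dividing cells 63 had S-phase members only, 113 both and 154 mitotic members only, and of the WT dividing cells 291, 697 and 1007. These counts are ranges of detected genes and not phase calls.

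The class makeup of the libraries differs, so the same counts are given by class. Neuronal lineage-like dividing cells most often held both groups, 52 of 86 in N-PRα-KO and 216 of 376 in WT (60.5% and 57.4%), with S-phase members only in 18.6% and 18.4%. The S-phase UMIs per mitotic UMI in these cells were 0.419 and 0.290. WT precursor-like dividing cells most often met the rule with mitotic members only, 615 of 1134, and their ratio was 0.143. The 6 N-PRα-KO ones gave 0.0579. In fibroblast-like cells 6, 20 and 28 N-PRα-KO and 6, 16 and 37 WT cells had S-phase only, both and mitotic only, at ratios of 0.214 and 0.141. In microglia-like cells S-phase only made up 23 of 57 N-PRα-KO cells (40.4%) against 32 of 158 WT cells (20.3%), at 0.339 and 0.162 S-phase UMIs per mitotic UMI. Endothelial-like cells went the other way. There 54 of 63 N-PRα-KO dividing cells (85.7%) and 76 of 117 WT ones (65.0%) had mitotic members only, and the ratio was 0.148 against 0.262.

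**Figure D2:**
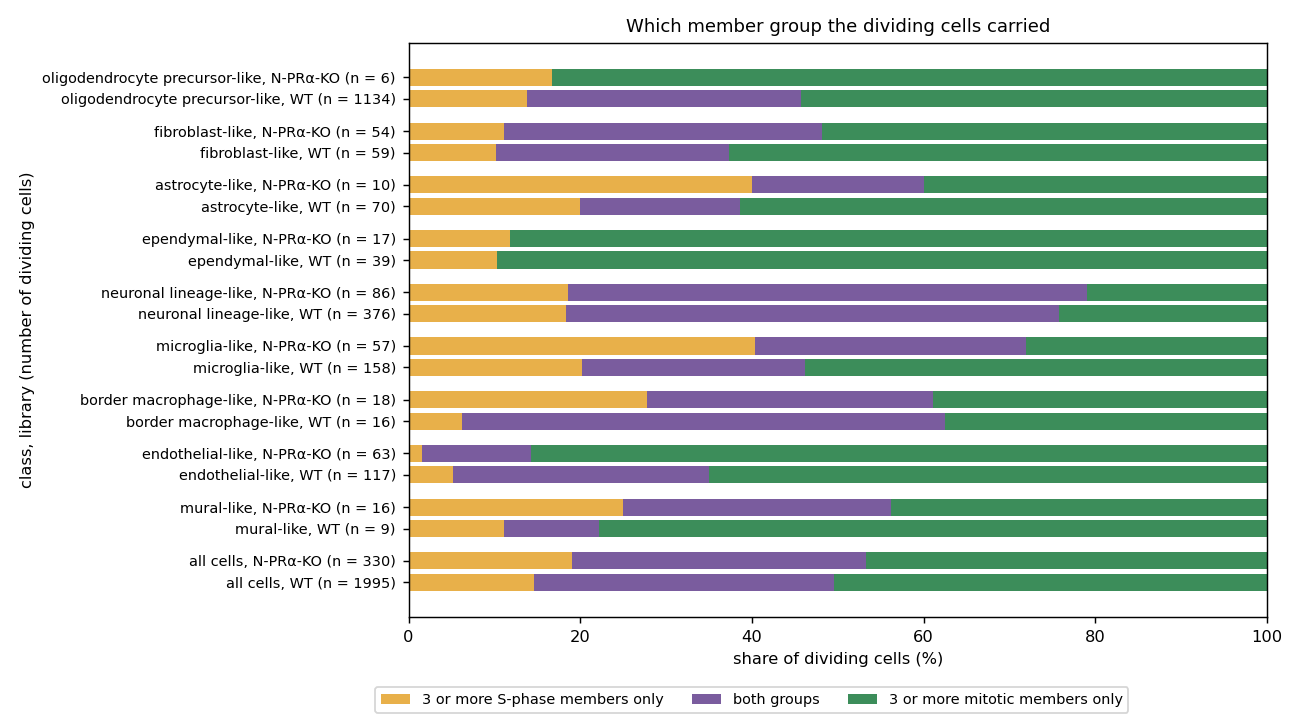
Dividing cells of each class and library split by the members they carried (x axis, % of dividing cells; number of dividing cells beside each bar). Orange is 3 or more S-phase members only, purple both groups and green 3 or more mitotic members only. S-phase only is 40.4% in N-PRα-KO and 20.3% in WT microglia-like cells, and mitotic only is 85.7% and 65.0% in endothelial-like cells.

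Levels per class were compared over all cells of the class, with a gene counted as measured at 20 CPM or more in either library and as changed past 2-fold in the ratio of the N-PRα-KO to the WT level. Mitotic members were lower in N-PRα-KO in nearly every case. In microglia-like cells 25 of 27 were measured, all 25 were lower and 24 by at least 2-fold, where 9.41% of all measured genes were lower by that much, and the median log2 ratio was -2.07. In endothelial-like cells 23 were measured and 22 were at least 2-fold lower (background 9.44%; median -1.59). In fibroblast-like cells 19 of 23 were (8.35%; -1.31), in border macrophage-like cells 15 of 24 (15.8%; -1.40), in mural-like cells 11 of 17 (14%; -1.78), in precursor-like cells 12 of 26 (8.79%; -0.94), in astrocyte-like cells 6 of 10 (7.2%; -1.20), in ependymal-like cells 5 of 9 (6.07%; -1.21) and in neuronal lineage-like cells 7 of 27 (6.29%; -0.65). The median of all measured genes lay between -0.14 and 0.04 in these classes. Genes passed the level limit in some classes only, so these counts do not cover all members. A weak gene can pass the 20 CPM limit through the WT library alone, which by itself favours a lower ratio. The background shares use the same limit. Its part in the counts and medians, above all in classes with few measured members, was not tested. As an alternative added after the data were seen, precursor RNA, taken at the level of the precursor markers, was subtracted from the WT library. The medians of the astrocyte-like and ependymal-like classes were then -0.67 and -0.32, under 2-fold.

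The S-phase members were lower by less in most classes. At least 2-fold lower were 9 of 10 in endothelial-like cells (median log2 ratio -1.64), 6 of 10 in border macrophage-like cells (-1.16), 5 of 10 in precursor-like cells (-0.97), 3 of 10 in microglia-like cells (-0.53), 2 of 9 in mural-like cells (-0.64), 1 of 6 in fibroblast-like cells (-0.66), 0 of 6 in astrocyte-like and in ependymal-like cells (-0.54 and -0.39) and 0 of 10 in neuronal lineage-like cells, where 6 were higher and the median was 0.14. The same background shares apply. Log2 ratios followed base composition over all genes (Spearman rho 0.48 to 0.67 between the ratio and the GC content of the last 500 transcript bases), and the S-phase members have a median GC of 39.7% against 42.4% for the mitotic members and 43.4% for all genes. With that trend removed the S-phase medians were -0.37 in fibroblast-like, -0.05 in astrocyte-like and 0.06 in ependymal-like cells; the mitotic median was -0.77 in astrocyte-like cells.

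**Figure D3:**
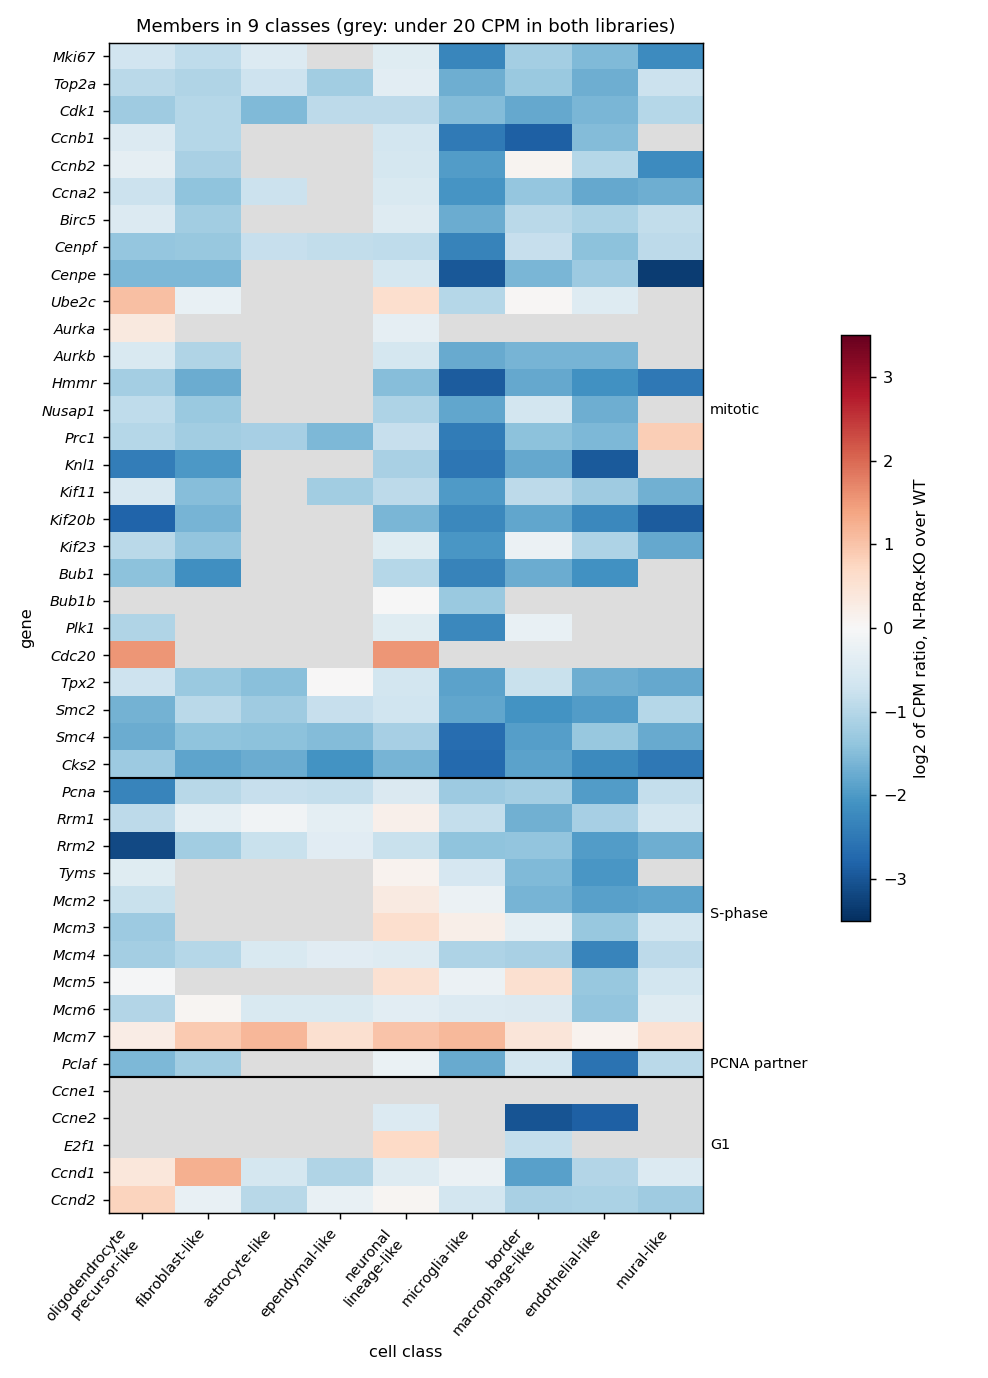
Log2 of the N-PRα-KO to WT ratio (colour, blue lower and red higher in N-PRα-KO) for the 43 members (y axis) in 9 classes (x axis); grey is under 20 CPM in both libraries. Microglia-like and endothelial-like columns are blue for the mitotic members, the neuronal lineage-like column is pale, and Mcm7 is the 1 row measured in all 9 classes that is red throughout.

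Mki67, the proliferation marker, was at 139 CPM in N-PRα-KO and 672 CPM in WT microglia-like cells (log2 ratio -2.28, 95% interval -2.43 to -2.12). It was at 45.9 and 210 CPM in mural-like cells (-2.19), at 57.2 and 166 CPM in endothelial-like cells (-1.54) and at 219 and 499 CPM in border macrophage-like cells (-1.19). It was at 83.9 and 154 CPM in fibroblast-like cells (-0.88), at 279 and 441 CPM in precursor-like cells (-0.66), at 18.98 and 26.5 CPM in astrocyte-like cells (-0.48) and at 562 and 751 CPM in neuronal lineage-like cells (-0.42). N-PRα-KO was lower in all of them, by most in microglia-like cells. Mki67 lies on chromosome 7 (135689784 to 135716361, minus strand, GRCm38).

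Top2a, the topoisomerase that untangles sister chromosomes, ranged in N-PRα-KO from 28.7 CPM in astrocyte-like to 843 CPM in neuronal lineage-like cells. In the WT library it ranged from 47.4 to 1091 CPM in the same classes. Its log2 ratio was lowest in microglia-like (164 and 536 CPM, -1.71) and endothelial-like cells (73.0 and 238 CPM, -1.71). It was -1.31 in border macrophage-like, -1.21 in ependymal-like, -1.06 in fibroblast-like (91.8 and 192 CPM), -0.94 in precursor-like (262 and 502 CPM), -0.75 in mural-like, -0.72 in astrocyte-like and -0.37 in neuronal lineage-like cells. Ependymal-like cells had 39.6 and 91.4 CPM of Top2a beside little Mki67 (5.73 and 16.6 CPM), so the members did not keep one proportion across classes.

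Smc4, a condensin subunit that compacts chromosomes, was lower in all 9 classes, with intervals below 0 in each (log2 ratios -1.17 to -2.67). It was at 87.0 and 555 CPM in microglia-like cells, 165 and 624 CPM in border macrophage-like cells, 124 and 426 CPM in mural-like cells and 141 and 473 CPM in precursor-like cells. In the classes with the least Mki67 it was in WT at 174 CPM in astrocyte-like and 180 CPM in ependymal-like cells against 64.6 and 63.2 CPM in N-PRα-KO. The other values were 99.3 and 264 CPM in fibroblast-like, 149 and 371 CPM in endothelial-like and 449 and 1013 CPM in neuronal lineage-like cells. Cks2, a subunit of CDK complexes, also was lower in all 9 classes with intervals below 0 (-1.28 to -2.71), for example 40.0 and 262 CPM in microglia-like, 145 and 450 CPM in neuronal lineage-like and 38.3 and 138 CPM in fibroblast-like cells.

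Cdk1, the mitotic kinase, was lower in 9 of 9 classes, with log2 ratios from -0.90 in ependymal-like to -1.80 in border macrophage-like cells (80.5 and 280 CPM). It was at 125 and 236 CPM in neuronal lineage-like, 63.2 and 150 CPM in precursor-like, 59.0 and 170 CPM in microglia-like, 45.1 and 136 CPM in endothelial-like, 32.3 and 64.0 CPM in fibroblast-like, 18.6 and 37.0 CPM in mural-like, 8.21 and 23.8 CPM in astrocyte-like and 11.01 and 20.6 CPM in ependymal-like cells. In mural-like cells only 6 WT UMIs of Cdk1 were counted and the interval spans 0 (-2.27 to 0.55).

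The members with the largest ratios differed by class. In precursor-like cells Rrm2 (-3.17) was followed by Kif20b (-2.80) and Knl1 (-2.42), a kinesin of cytokinesis and a kinetochore scaffold, each on 5 or 6 N-PRα-KO UMIs. In fibroblast-like cells the first were Bub1, a checkpoint kinase (9.32 and 41.4 CPM, -2.15), Knl1 (-2.01), Cks2 (-1.85) and Hmmr, a spindle assembly factor (-1.74). In microglia-like cells Cenpe, a kinetochore motor, was at 27.7 and 218 CPM (-2.97) and Hmmr at 15.4 and 115 CPM (-2.91). In mural-like cells Cenpe (-3.32), Kif20b (-2.91), Cks2 (-2.50) and Hmmr (-2.50) led on 6 to 27 WT UMIs. In endothelial-like cells Knl1 was at 3.43 and 26.5 CPM (-2.95). Bub1 in fibroblast-like, Hmmr in microglia-like and Knl1 in endothelial-like cells passed the 20 CPM limit through the WT library alone. That by itself favours a lower ratio and a place in this ranking, and its part was not tested. In border macrophage-like cells Ccne2, cyclin E2 (-3.01), was followed by Ccnb1, cyclin B1 (-2.86), and Smc2, the condensin partner of Smc4 (-2.08). In neuronal lineage-like cells Cks2 (-1.64) was followed by Kif20b (-1.60). In astrocyte-like cells Cdk1 (-1.53) and Tpx2, a spindle assembly factor (-1.45), and in ependymal-like cells Prc1, a midzone protein (-1.56), and Kif11, a spindle motor (-1.23), followed Cks2. Knl1, Kif20b and Bub1 are among the members poorest in GC (32.8%, 31.4% and 33.6%); with the GC trend removed Knl1 was at -1.98 in precursor-like, -1.56 in fibroblast-like and -2.40 in endothelial-like cells.

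Cdc20 and Ube2c, which carry out the protein destruction that ends mitosis, were exceptions among the mitotic members in some classes. Cdc20 was measured in 2 classes and was higher in N-PRα-KO in both, at 51.7 and 17.6 CPM in precursor-like cells (log2 ratio 1.55, 0.78 to 2.24) and at 55.5 and 19.1 CPM in neuronal lineage-like cells (1.54, 1.03 to 2.05). With the GC trend removed these were 0.67 and 0.64, and Cdc20 has 52.2% GC. In both classes Cdc20 passed the 20 CPM limit through the N-PRα-KO library alone, which by itself favours a higher ratio. Ube2c was measured in 6 classes, higher in 3 and lower in 3. It was higher in precursor-like cells (195 and 94.1 CPM, 1.05) and neuronal lineage-like cells (189 and 127 CPM, 0.57) and lower in microglia-like cells (33.1 and 65.8 CPM, -0.99) and endothelial-like cells (33.4 and 45.4 CPM, -0.44). In border macrophage-like (0.05) and fibroblast-like cells (-0.25) its interval spans 0. With the trend removed Ube2c was at 0.56, 0.08, -1.45, -0.89, -0.35 and -0.68 in these 6 classes.

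Pcna, the polymerase clamp, was lower in all 9 classes with intervals below 0. It was at 40.2 and 201 CPM in precursor-like cells (log2 ratio -2.32, on 14 N-PRα-KO UMIs), 70.3 and 272 CPM in endothelial-like cells (-1.95), 144 and 344 CPM in microglia-like cells (-1.26) and 189 and 430 CPM in border macrophage-like cells (-1.19). It was at 73.2 and 144 CPM in fibroblast-like (-0.98), 72.1 and 130 CPM in mural-like (-0.85), 52.0 and 91.9 CPM in ependymal-like (-0.82), 65.9 and 116 CPM in astrocyte-like (-0.81) and 450 and 642 CPM in neuronal lineage-like cells (-0.51). Pcna is GC-poor (33%), and without the trend its ratio in neuronal lineage-like cells was -0.03.

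Rrm2, the cell-cycle-bound subunit of ribonucleotide reductase, had the lowest ratio of any member in precursor-like cells, 14.4 and 129 CPM (-3.17, on 5 N-PRα-KO UMIs). It was at 25.5 and 98.5 CPM in endothelial-like, 16.9 and 55.6 CPM in mural-like, 38.8 and 104 CPM in microglia-like, 61.0 and 159 CPM in border macrophage-like, 18.5 and 42.9 CPM in fibroblast-like, 24.9 and 42.999 CPM in astrocyte-like, 287 and 491 CPM in neuronal lineage-like and 22.5 and 29.6 CPM in ependymal-like cells. Its interval was below 0 in 8 of the 9 classes; in the ependymal-like class it spans 0 (-0.88 to 0.09), and the ratio there was 0.09 with the GC trend removed.

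The 6 Mcm genes, subunits of one helicase, diverged. Mcm4 was lower in 9 of 9 classes, down to -2.31 in endothelial-like cells (12.5 and 61.6 CPM). Mcm6 was at 48.7 and 46.4 CPM in fibroblast-like cells (0.07, interval -0.24 to 0.38) and lower in the other 8 classes, at 37.4 and 75.8 CPM in precursor-like, 37.9 and 98.9 CPM in endothelial-like, 49.98 and 69.5 CPM in microglia-like, 69.4 and 98.9 CPM in border macrophage-like, 44.8 and 61.7 CPM in mural-like, 16.2 and 23.5 CPM in astrocyte-like, 23.1 and 33.2 CPM in ependymal-like and 196 and 253 CPM in neuronal lineage-like cells. With the GC trend removed Mcm6 was at -0.25 in fibroblast-like cells. Mcm2, Mcm3 and Mcm5 were higher in N-PRα-KO in neuronal lineage-like cells, at 113 and 90.3, 96.3 and 64.7, and 158 and 109 CPM (0.33, 0.57 and 0.53), and lower in endothelial-like cells, at 7.22 and 27.0, 11.6 and 28.8, and 13.5 and 34.2 CPM (-1.90, -1.32 and -1.34). With the trend removed the neuronal lineage-like ratios were 0.05, 0.39 and 0.69. In endothelial-like cells Mcm2, Mcm3 and Mcm5 passed the 20 CPM limit through the WT library alone.

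Mcm7 was the 1 measured member above 0 in all 9 classes, with log2 ratios of 0.13 to 1.16. It was at 210 and 105 CPM in neuronal lineage-like (0.996, 0.76 to 1.23), 41.0 and 18.7 CPM in microglia-like (1.13), 21.04 and 9.40 CPM in astrocyte-like (1.16) and 27.95 and 14.9 CPM in fibroblast-like cells (0.90), the 4 classes where the interval lay above 0. In the microglia-like, astrocyte-like and fibroblast-like classes Mcm7 passed the 20 CPM limit through the N-PRα-KO library alone, which by itself favours a higher ratio. In mural-like cells a single WT UMI was counted. Mcm7 is the S-phase member richest in GC (49.4%), and with the trend removed it was below 0 in precursor-like, border macrophage-like and endothelial-like cells (-0.31, -0.09 and -0.42) and still at 0.71, 0.58, 0.41 and 0.39 in the astrocyte-like, microglia-like, neuronal lineage-like and fibroblast-like classes.

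Pclaf, which binds PCNA at replication forks, was lowest against WT in endothelial-like cells, at 34.3 and 206 CPM (-2.59), and in microglia-like cells, at 59.6 and 204 CPM (-1.78). It was at 66.1 and 196 CPM in precursor-like (-1.57), 41.3 and 95.4 CPM in fibroblast-like (-1.21), 25.7 and 49.4 CPM in mural-like (-0.94), 155 and 241 CPM in border macrophage-like (-0.63) and 553 and 655 CPM in neuronal lineage-like cells (-0.24). In astrocyte-like and ependymal-like cells both libraries were under 20 CPM (13.3 and 17.7, 9.25 and 11.6). Of the 9 classes the neuronal lineage-like cells had the highest level of Pclaf in each library.

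The members' UMIs came from different cells in the 2 libraries. In the N-PRα-KO library the class with the most UMIs was neuronal lineage-like for 24 members, fibroblast-like for 10, endothelial-like for 6, ependymal-like for 2 and microglia-like for 1. In the WT library it was precursor-like for 41 and neuronal lineage-like for 2. Neuronal lineage-like cells held 29.9% of the N-PRα-KO Mki67 UMIs and 19.1% of the WT ones, and WT precursor-like cells held 60.9%.

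Among the dividing cells alone the mitotic medians lay nearer 0 than over all cells of the same 4 classes. The S-phase median lay further above 0 in neuronal lineage-like cells and changed sign in fibroblast-like and microglia-like cells. In endothelial-like cells it stayed below 0 but nearer to it. The measured genes differ, for example 6 S-phase members over all fibroblast-like cells and 10 in dividing ones. Dividing cells were chosen by the same genes, so the values describe them only. Mki67 was at 853 and 863 CPM in dividing fibroblast-like cells (54 and 59 cells), 359 and 324 CPM in endothelial-like, 1123 and 1289 CPM in neuronal lineage-like and 1006 and 1839 CPM in microglia-like cells. The median mitotic log2 ratio was -0.48, -0.0044, -0.40 and -0.64 in these classes, against medians of all genes of -0.04 to 0.05, and the S-phase median was 0.18, -0.63, 0.40 and 0.69. Over all cells the S-phase medians of these classes were -0.66, -1.64, 0.14 and -0.53. Pcna was at 138 and 417 CPM in dividing endothelial-like cells and at 317 and 419 CPM in dividing fibroblast-like cells.

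Within each library, dividing cells had more UMIs than other cells (median 8407 against 5818 in N-PRα-KO and 4454 against 3559 in WT), and their members are higher by construction. Mki67 stood at 745 CPM in dividing and 8.73 CPM in other N-PRα-KO cells and at 1161 and 10.596 CPM in WT. Pcna stood at 399 and 61.4 CPM and at 536 and 101 CPM. The G1 genes were not used in the rule. The E-type cyclin Ccne2 was at 26.9 CPM in dividing and 1.05 CPM in other N-PRα-KO cells (log2 4.67, 4.04 to 5.34) and at 47.5 and 4.42 CPM in WT cells (3.42). Ccne1 was at 20.5 and 1.77 CPM (3.53) and at 16.7 and 2.93 CPM (2.51), and E2f1, a factor that turns on S-phase genes, at 43.5 and 6.32 CPM (2.78) and at 15.6 and 3.81 CPM (2.04).

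**Figure D4:**
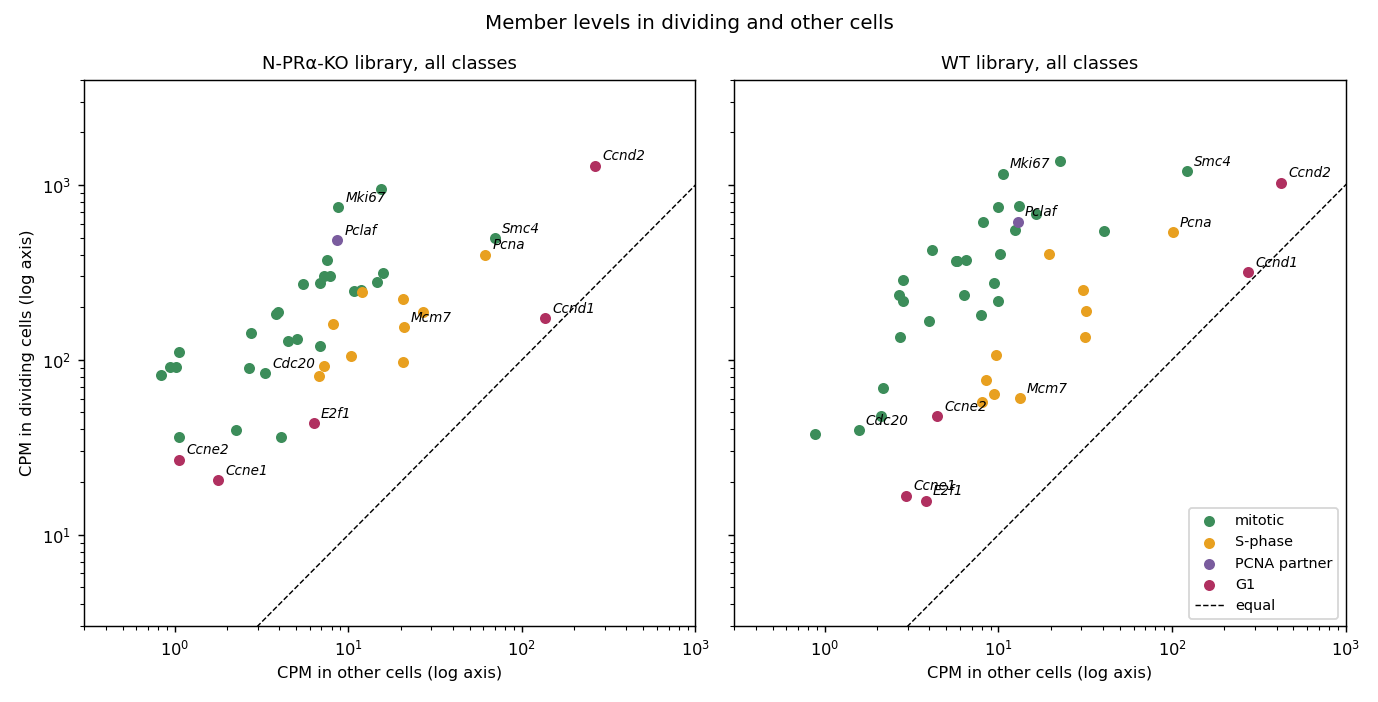
Level of each member in dividing cells (y axis) against other cells (x axis), in CPM on log axes, N-PRα-KO left and WT right; the dashed line marks equal levels. Mitotic members (green) and Pclaf lie far above the line and Ccnd1 lies closest to it, at 173 against 137 CPM and 317 against 275 CPM.

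The D-type cyclins, which couple growth signals to the CDK4 and CDK6 kinases, differed widely between classes. Ccnd2 was at 3649 CPM in N-PRα-KO and 3496 CPM in WT neuronal lineage-like cells (log2 ratio 0.06), which held 45.0% and 47.8% of its UMIs. It was next highest in mural-like (645 and 1531 CPM, -1.25) and astrocyte-like cells (399 and 777 CPM, -0.96), and lower in endothelial-like (180 and 389 CPM, -1.11), precursor-like (397 and 233 CPM, 0.77), ependymal-like (175 and 208 CPM, -0.25), fibroblast-like (138 and 166 CPM, -0.26), border macrophage-like (43.001 and 94.6 CPM, -1.14) and microglia-like cells (33.4 and 51.8 CPM, -0.63). The small fibroblast-like and ependymal-like ratios changed sign with the GC trend removed (0.08 and 0.16). Ccnd2 was higher in dividing than in other neuronal lineage-like cells of both libraries, at 5369 against 2079 CPM and at 4712 against 1863 CPM. In fibroblast-like cells it was higher in dividing cells of the N-PRα-KO library (250 against 128 CPM) and lower in those of the WT library (94.9 against 180 CPM).

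Ccnd1 was highest in N-PRα-KO precursor-like and WT border macrophage-like cells. It was at 592 and 450 CPM in precursor-like (0.40; -0.38 with the GC trend removed), 335 and 469 CPM in mural-like (-0.49), 222 and 448 CPM in endothelial-like (-1.02), 172 and 637 CPM in border macrophage-like (-1.89), 226 and 260 CPM in microglia-like (-0.20), 83.9 and 114 CPM in neuronal lineage-like (-0.44), 82.4 and 125 CPM in astrocyte-like (-0.60) and 12.3 and 25.6 CPM in ependymal-like cells (-1.05). In fibroblast-like cells it went against the mitotic members, at 108 CPM in N-PRα-KO and 45.6 CPM in WT (1.24, 0.96 to 1.53), where 15.9% of all measured genes were at least 2-fold higher; with the GC trend removed the ratio was 0.53, under 2-fold. Dividing fibroblast-like cells had more Ccnd1 than the others in both libraries, at 176 against 101 CPM and at 90.2 against 37.9 CPM. In WT precursor-like cells Ccnd1 was at 405 CPM in dividing and 471 CPM in other cells.

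**Figure D5:**
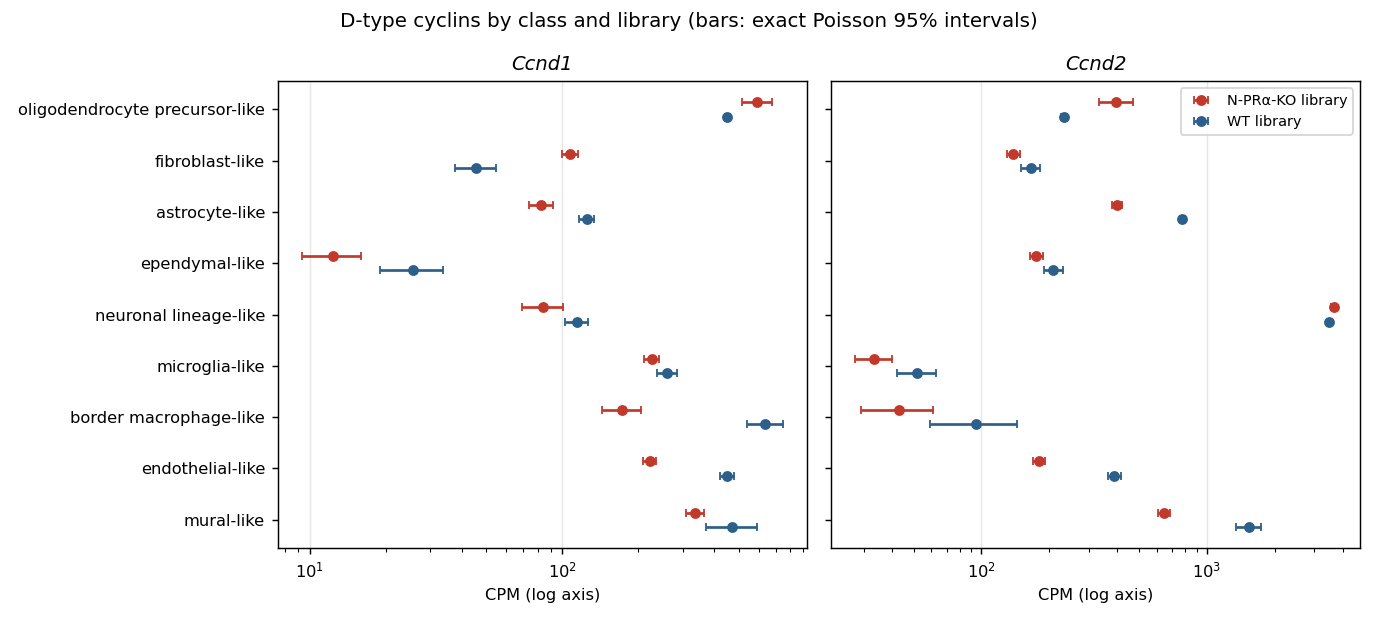
Ccnd1 (left) and Ccnd2 (right) in CPM on a log axis (x axis) in 9 classes (y axis), N-PRα-KO in red and WT in blue, with exact Poisson 95% intervals. Ccnd1 is higher in N-PRα-KO in fibroblast-like and precursor-like cells only, and Ccnd2 peaks at 3649 and 3496 CPM in neuronal lineage-like cells.

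The remaining G1 members were near the detection limit. Ccne2 was measured in 3 classes and was lower in each, at 6.94 and 55.9 CPM in border macrophage-like (-3.01, on 5 and 13 UMIs), 3.43 and 24.7 CPM in endothelial-like (-2.85) and 23.4 and 32.7 CPM in neuronal lineage-like cells (-0.48, interval -1.10 to 0.10). In the other 6 classes Ccne2 was at 0 to 6.93 CPM in N-PRα-KO and 1.005 to 18.4 CPM in WT. In border macrophage-like and endothelial-like cells Ccne2 passed the 20 CPM limit through the WT library alone, which by itself favours a lower ratio. E2f1 was measured in 2 classes and was at 50.4 and 30.8 CPM in neuronal lineage-like cells (0.71; -0.21 with the GC trend removed). Ccne1 was under 20 CPM in all 9 classes, and Aurka and Bub1b were measured in 2 classes each.

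Other cell cycle genes, 51 in 7 lists chosen with earlier results known, were counted the same way. Of 15 other mitotic genes, 8 were measured and all lower in fibroblast-like cells, 7 of them by at least 2-fold, led by the cytokinesis factor Ect2 (7.81 and 27.97 CPM, -1.84) and the checkpoint kinase Ttk (-1.55). In neuronal lineage-like cells 11 of 13 were lower and 5 by at least 2-fold (Kif2c -1.53, Ect2 -1.33), in microglia-like cells 13 of 13 and 11, and in endothelial-like cells 9 of 9 and 7. Of 8 chromatin genes of dividing cells all were lower in fibroblast-like, microglia-like and endothelial-like cells, 3, 7 and 6 of them by at least 2-fold. Over all measured genes the shares at least 2-fold lower were 8.35% in fibroblast-like, 6.29% in neuronal lineage-like, 9.41% in microglia-like and 9.44% in endothelial-like cells. Ect2 passed the 20 CPM limit in fibroblast-like cells through the WT library alone, which by itself favours a lower ratio. Lmnb1, a nuclear lamin, was at 42.8 and 110 CPM (-1.37) and H2afz, a histone variant, at 353 and 791 CPM (-1.17) in fibroblast-like cells, while in neuronal lineage-like cells H2afz (-0.91) and Hells, a chromatin remodeller (-0.87), were the lowest of the 7 that were lower. In dividing cells against others, Kif4 (log2 5.54 and 6.11), Cdca8 (5.61 and 5.42) and Kif20a (5.26 and 5.81) led the mitotic genes, and none of these 3 was used in the rule. Uhrf1, which maintains DNA methylation, was higher in dividing cells by 4.33 and 3.93, Hells by 4.15 in N-PRα-KO and Hmgb2, a chromatin protein, by 4.16 in WT cells.

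Of 10 origin licensing and firing genes, 2 were measured in fibroblast-like cells and both were lower, Slbp, the histone mRNA binder (18.6 and 52.1 CPM, -1.48), and Orc6 (-0.51). In neuronal lineage-like cells 7 were measured, 4 higher and 3 lower, with Slbp at -0.61 and Cdt1, a licensing factor, at -0.41. Cdc6 was at 27.8 CPM in dividing and 1.28 CPM in other N-PRα-KO cells (log2 4.44) and at 26.3 and 1.52 CPM in WT (4.11), Gmnn, the licensing inhibitor, at 76.1 and 4.52 CPM (4.07) and at 50.9 and 4.12 CPM (3.63), and Orc1 at 6.71 and 0.226 CPM in N-PRα-KO (4.89).

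The brakes of the cycle were mixed. Cdkn1a, which encodes p21, was higher in N-PRα-KO fibroblast-like (46.0 and 18.0 CPM, 1.35; 0.40 with the GC trend removed), neuronal lineage-like (62.8 and 20.03 CPM, 1.65; 0.59), astrocyte-like (91.1 and 3.46 CPM, 4.72; 3.81) and endothelial-like cells (420 and 73.7 CPM, 2.51; 1.51). It was lower in microglia-like cells (60.8 and 160 CPM, -1.39; -2.41). Cdkn1c, which encodes p57, was at 107 and 215 CPM in fibroblast-like (-1.004) and 45.2 and 20.6 CPM in neuronal lineage-like cells (1.13). Cdkn2c, which encodes p18, was a gene of dividing cells in both libraries, at 117 against 15.9 CPM (log2 2.88) and at 235 against 19.8 CPM (3.57). Cdkn2a was at 1.60 CPM or less in dividing and other cells of both libraries. Of these 7 inhibitors 4 were measured in fibroblast-like and 5 in neuronal lineage-like cells, 1 and 3 of them higher.

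Of the G1 kinases and partners, Ccnd3, the third D-type cyclin, was higher in all 9 classes, for example 102 and 21.5 CPM in fibroblast-like (2.25; 1.34 with the GC trend removed) and 46.0 and 10.5 CPM in neuronal lineage-like cells (2.13; 1.13). It was at 105 CPM in dividing and 95.6 CPM in other N-PRα-KO cells (log2 0.14, -0.03 to 0.31). Cdk2, the partner of E-type cyclins, was lower in both, at 39.7 and 70.5 CPM (-0.83) and at 71.5 and 128 CPM (-0.83), and Cdk6 was at 138 CPM in dividing and 47.7 CPM in other N-PRα-KO cells (1.53) and at 103 and 45.4 CPM in WT (1.18). Cdk4 stood at 286 and 113 CPM in N-PRα-KO (1.34). Among the pocket proteins that restrain E2F, Rbl1 was higher in dividing cells (59.8 against 9.75 CPM, 2.62, and 70.3 against 9.38 CPM, 2.91) and Rb1 little different (0.61 and 0.21). Rb1 was at -0.57 and Rbl2 at 0.05 in fibroblast-like, and Rbl1 at -0.93 and Rb1 at -0.29 in neuronal lineage-like cells.

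The tubulin and stathmin genes of dividing and young cells did not follow the mitotic members. All 4 were higher in N-PRα-KO neuronal lineage-like cells and 3 of 4 in fibroblast-like cells, with Tubb5, a tubulin, at 1.51 and 0.98, Tubb4b at 0.29 in the first and Tuba1b at -0.24 in the second, but their medians of 0.27 and 0.01 were -0.19 and -0.39 with the GC trend removed. Barcodes over the mitochondrial limit held fewer dividing cells than those kept, 22 of 1622 (1.36%) for N-PRα-KO and 24 of 409 (5.87%) for WT.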

How the data were processed

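RNA of single cells was counted in 2 libraries of CD140a-enriched cells from mouse cortex and meninges, 1 per genotype. The authors deposited UMI counts per gene and cell made by BD's Rhapsody WTA pipeline, release 1.10 for N-PRα-KO and 1.10.1 for WT, against GRCm38 with GENCODE M19, per the file headers. For the aligner, the name is not given in the sources used. The deposited counts hold only barcodes the pipeline had called cells, 8336 with 41982217 UMIs and 11438 with 43459947 UMIs.

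Barcodes under 300 genes or above 25% mitochondrial UMIs were dropped, as were doublets called by Scrublet (10 and 174). Clustering (scanpy 1.11.5, leidenalg 0.10.2) used 3120 variable genes without the listed cell cycle genes, 30 components, 20 neighbours and resolution 1, which gave 30 clusters. A cluster was named when its marker score was at least 0.5 and led by at least 0.5, or by 1.5 where no own marker was among its top 10 genes; the second limit was set after the clusters were seen and left cluster 24 unnamed (49 N-PRα-KO and 104 WT cells of at least 2000 UMIs). Shares have exact Clopper-Pearson 95% intervals, levels exact Poisson ones and ratios exact conditional ones, with counts under 3 set to 3. These cover counting error only, and as there was 1 library per genotype no test was made. The ratio code was tested on simulated data. GC content was taken from the last 500 transcript bases, and all 43 members had a value.

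The members and gene lists were chosen with earlier results of these data known. Named genes were, by rule, the 3 members with the highest mean CPM of each group, Mki67, Top2a, Cdk1, Pcna and Pclaf, the 4 members with the largest ratio in each class and the 2 leading genes of each other list in fibroblast-like, neuronal lineage-like and dividing cells; Cdc20, Ube2c, Mcm2, Mcm3, Mcm4, Mcm5 and Mcm7, E2f1 and Ccne1 were added after their values were seen, as were the other classes' values of Cdkn1a. Alternatives changed the thinning, the dividing rule, cell filters, clustering, level limit, weighting, GC trend and precursor RNA.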

Additional observations from a re-analysis of the deposited data

Results flagged for a closer look

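6 genes differed in opposite directions between a pair of classes, by the log2 of the N-PRα-KO to WT ratio with intervals that exclude 0 in both; with 1 library per genotype the difference was not tested in any of them. Ube2c was higher in oligodendrocyte precursor-like cells (1.05) and lower in microglia-like cells (-0.99). Mcm2 was at 0.33 in neuronal lineage-like and -1.90 in endothelial-like cells, Mcm3 at 0.57 and -1.32, and Mcm5 at 0.53 and -1.34. Ccnd1 was at 1.24 in fibroblast-like and -1.89 in border macrophage-like cells. Ccnd2 was at 0.77 in precursor-like and -1.25 in mural-like cells.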

How the results depend on the processing

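No paired analysis was possible because there is 1 library per genotype. Over 13 settings the difference in dividing share was below 0 in all 98 values (-32.7 to -1.09 percentage points), and over 14 settings the mitotic median ratio was below 0 in all 113 (-2.27 to -0.32). The S-phase median was below 0 in 101 of 113 values and above in 12, and in neuronal lineage-like cells it ranged from -0.03 to 0.25. Sizes moved as follows, the cause not being tested. Thinned to 1000 UMIs, the share difference was -3.67 points in ependymal-like, -6.98 in neuronal lineage-like and -14.0 in microglia-like cells, and S-phase UMIs per mitotic UMI in dividing cells were 0.273 (N-PRα-KO) and 0.162 (WT). Without thinning it was -1.23 in astrocyte-like, -3.94 in ependymal-like, -5.67 in neuronal lineage-like, -12.8 in microglia-like and -14.0 in endothelial-like cells, with 0.353 S-phase UMIs per mitotic UMI in N-PRα-KO. With 2 members it was -23.7 in precursor-like, -12.5 in fibroblast-like, -13.2 in astrocyte-like, -16.8 in ependymal-like and -31.2 in microglia-like cells (0.360 and 0.200); with 4, -1.30 in astrocyte-like and -4.70 in ependymal-like cells (0.278 and 0.164). With Mki67 required, chosen after seeing the data, it was -1.09 in astrocyte-like, -1.49 in ependymal-like, -15.0 in neuronal lineage-like, -16.1 in microglia-like and -13.2 in endothelial-like cells. Adding Pclaf to the S-phase members gave 0.376 and 0.235, and a 10% mitochondrial limit 0.242 and 0.167. Among medians, removing the GC trend gave -0.37 (S-phase, fibroblast-like), -0.77 (mitotic, astrocyte-like), -0.047 (S-phase, astrocyte-like) and 0.062 (S-phase, ependymal-like). Subtracting precursor RNA, also added after seeing the data, gave mitotic medians of -0.67 (astrocyte-like) and -0.32 (ependymal-like). A limit of 10 CPM gave -0.16 and of 50 CPM -0.98 for S-phase in fibroblast-like cells. Weighting each cell the same gave a mitotic median of -0.85 in neuronal lineage-like cells. In astrocyte-like cells a 50% mitochondrial limit gave -1.75 and clustering with cell cycle genes -2.10. At the 10% limit only astrocyte-like cells numbered 50 in both libraries. The number of cells of at least 2000 UMIs, 54, 40 and 41, limits the N-PRα-KO precursor-like and the WT mural-like and border macrophage-like values.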
